A study of Mus musculus with 15 samples.

Results

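Transforming growth factor beta (TGF-beta) signalling was followed through 8 of its genes on 15 Affymetrix arrays of mouse mammary epithelial cells: the ligands Tgfb1, Tgfb2 and Tgfb3, the latency protein Ltbp1, the receptors Tgfbr1 and Tgfbr2, and the signal transducers Smad3 and Smad7. Every probe set (a group of short probes read as 1 value) whose only gene symbol in the platform annotation is one of these was taken, which gave 15 probe sets of the 20380 with a single symbol, and 8 genes of 12393. Tgfb2, Tgfbr1 and Tgfbr2 have 3 probe sets each, Smad3 has 2, and Tgfb1, Tgfb3, Ltbp1 and Smad7 have 1. Each gene is described by its brightest probe set, and the others are given where they differ. The probe sets that stand for the genes are 1420653_at (Tgfb1), 1423250_a_at (Tgfb2), 1417455_at (Tgfb3), 1448870_at (Ltbp1), 1420895_at (Tgfbr1), 1426397_at (Tgfbr2), 1450471_at (Smad3) and 1423389_at (Smad7).

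The mice were C57BL/6 females given intraperitoneal injections of PBS (the control), 5-azacytidine (AzaC, an inhibitor of DNA methylation) or valproic acid (VPA, an inhibitor of histone deacetylases). Their stage is labelled either virgin (9 week) or pregnant (day 21). Arrays labelled pregnant number 2 for PBS, 3 for AzaC and 3 for VPA, and those labelled virgin number 2 for PBS, 3 for AzaC and 2 for VPA. Glands were digested and the epithelial cells purified before their mRNA was extracted, so the RNA is that of a bulk preparation, and nothing in the labels says whether replicates are separate mice. P-values therefore measure the spread between these samples, which may be technical.

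TGF-beta ligands are secreted in a latent form, bound by their own propeptide, which a latent TGF-beta binding protein such as Ltbp1 ties to the extracellular matrix. Once released, a ligand binds the receptor Tgfbr2, which recruits and activates Tgfbr1. Tgfbr1 then phosphorylates Smad2 and Smad3, which enter the nucleus with Smad4, while Smad7 is made in response and blocks the receptor. In the mammary gland Tgfb1 is known for restraining the growth of ducts, and Tgfb3 for its rise at weaning, when it contributes to the death of secretory cells.

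The stage labels were checked with 5 milk genes (Csn2, Wap, Lalba, Csn1s1 and Glycam1), which read between 13.41 and 14.48 on all 15 arrays, against a highest value of 14.48 in the whole table. Csn2, beta-casein, read 13.69 to 13.94 on arrays labelled virgin and 13.69 to 14.03 on arrays labelled pregnant, so these genes do not separate the labels. No luminal epithelial marker was listed at 0 on any array, and the lowest of their 9 medians was 8.67 (Cldn4), with Krt8, Krt18, Krt19, Epcam and Elf5 at 12.36 or above. Of the markers of other cells, the T cell gene Cd3d (0 to 4.13, median 0.32) and the platelet gene Gp9 (0 to 3.85, median 0.38) were listed at 0 on at least 1 array, while others of their lists were not, such as Cd8a (median 7.85) and Pf4 (median 8.53). No marker in the basal, fibroblast, endothelial, macrophage, adipocyte or pericyte lists was listed at 0. Their medians reached 13.43 for Acta2 (basal and myoepithelial), 12.95 for Fabp4 (adipocyte), 12.19 for Col3a1 (fibroblast) and 11.11 for Csf1r (macrophage). Array medians lay between 7.22 and 7.47. All values are deposited log2 signals, and a difference of 1 is a doubling. Differences between groups are taken within a probe set. Levels of different probe sets set side by side, as for the markers above, do not compare amounts of RNA. Virgin AzaC replicate 1 stood apart from its group: 7 of the 8 genes were lowest there of the 3 replicates (the share over all genes was 47.6%). Because these 8 genes themselves picked out the array, leaving it out can reduce their spread. Calls gained that way add no support, and calls over all genes are not given for that fit.

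Of the 8 genes, 6 have a start site in the RefSeq promoter table of build GRCm38.p6 (Tgfb1, Tgfb2, Ltbp1, Tgfbr1, Tgfbr2 and Smad3), with 8 windows of the 250 bases before the start. Shown here are both windows of Ltbp1, the gene of the 8 with the smallest p-value below, and that of Tgfb2, a ligand gene that did not pass the test in any comparison. Capitals mark matches to TGACGTCA (the cyclic AMP response element) and to the SMAD box GTCTG or CAGAC, searched on both strands. The Ltbp1 windows lie at chr17:75005279-75005528 and chr17:75178531-75178780 on the plus strand, and the Tgfb2 window at chr1:186705990-186706239 on the minus strand, each written 5′ to 3′ along the gene.
Ltbp1, upstream start: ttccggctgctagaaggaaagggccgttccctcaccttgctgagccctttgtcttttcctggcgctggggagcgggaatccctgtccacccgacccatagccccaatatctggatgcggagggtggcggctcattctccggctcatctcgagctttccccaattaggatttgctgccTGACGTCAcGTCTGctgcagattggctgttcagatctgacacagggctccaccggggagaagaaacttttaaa
Ltbp1, downstream start: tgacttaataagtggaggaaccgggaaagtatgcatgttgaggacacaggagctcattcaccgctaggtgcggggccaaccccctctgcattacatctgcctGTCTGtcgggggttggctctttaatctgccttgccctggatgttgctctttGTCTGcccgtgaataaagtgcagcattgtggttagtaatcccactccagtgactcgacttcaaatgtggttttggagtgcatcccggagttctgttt
Tgfb2: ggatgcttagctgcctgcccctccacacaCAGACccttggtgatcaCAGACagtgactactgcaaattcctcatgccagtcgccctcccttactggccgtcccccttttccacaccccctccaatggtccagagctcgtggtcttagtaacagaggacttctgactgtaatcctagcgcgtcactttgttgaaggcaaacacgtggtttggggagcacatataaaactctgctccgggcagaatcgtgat

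In the window at the upstream Ltbp1 start, TGACGTCA begins at -73 from the start site and is followed at -64 by a SMAD box, with no overlap between them. The window at the other Ltbp1 start has SMAD boxes at -148 and -97, and the Tgfb2 window has them at -221 and -204. Among all 32851 windows of this length, 1.55% hold TGACGTCA and 42.2% hold a SMAD box. The palindrome GTCTAGAC (0.167% of all windows), the AP-1 motif TGANTCA (6.75%) and the STAT motif TTCCNGGAA (0.913%) were also searched on both strands and were found in none of the 8 windows. These matches describe letters only.

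The comparison of each drug with PBS among arrays labelled pregnant asks which genes differed after the injections. Tgfb3 and Ltbp1 rose with both drugs, and no other gene of the 8 passed the test with either. Tgfb3 was 12.4-fold higher with AzaC and 10.8-fold higher with VPA, and Ltbp1 was 6.45-fold and 6.81-fold higher. Both drugs are compared with the same 2 PBS arrays, so the comparisons are not independent of each other. With AzaC 7.57% of all 12393 genes passed the threshold in either direction and 3.76% passed it as higher. With VPA 5.98% passed in either direction and 3.64% as higher. In bulk RNA, more cells of a type and more RNA per cell cannot be told apart.

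**Figure D1:**
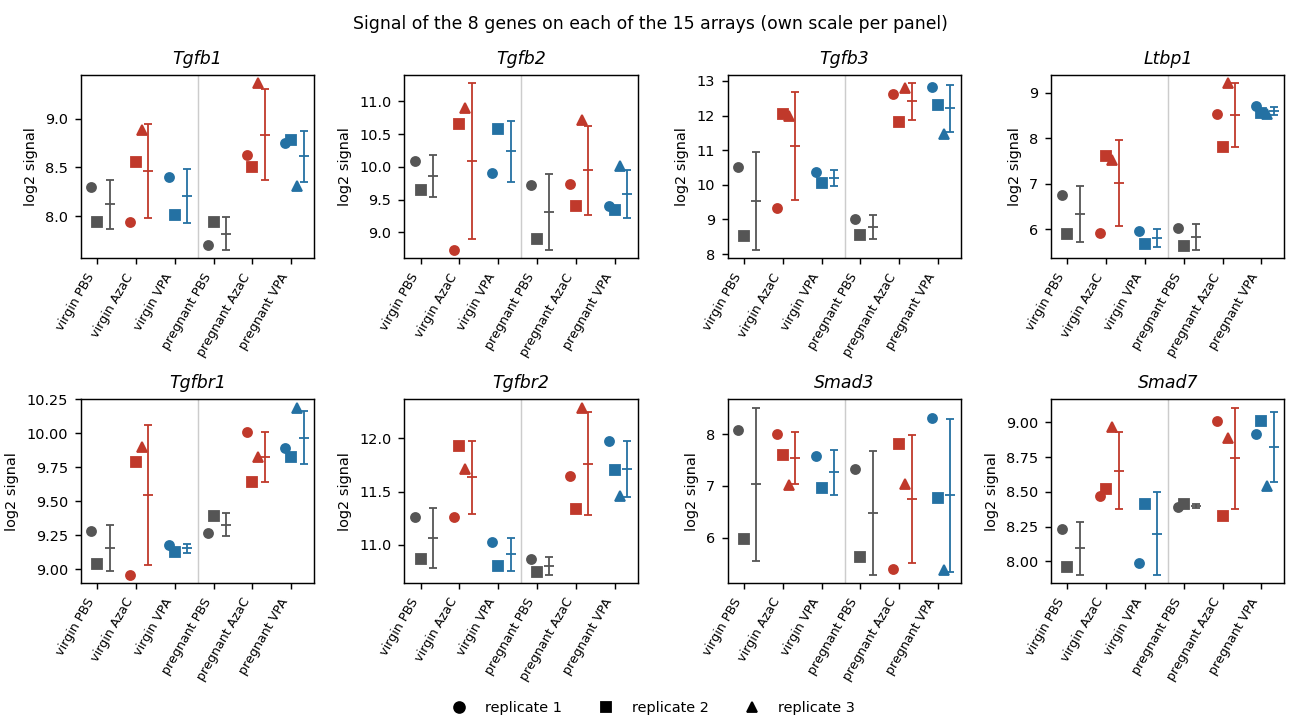
Log2 signal of the 8 genes (vertical axis, own scale in each panel) on each of the 15 arrays, grouped by stage label and injection (horizontal axis); symbols give the replicate number, and the bars beside them are the group mean ± SD. For Tgfb3 and Ltbp1 every drug array labelled pregnant lies above both of its PBS arrays, and for Smad3 the replicates of 4 of the 6 groups lie farther apart than any 2 group means.

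Tgfb3 read 9.02 and 8.54 on the PBS arrays labelled pregnant. The AzaC arrays of that label read 12.62, 11.81 and 12.81, and the VPA arrays 12.82, 12.32 and 11.48. All 6 drug arrays were above both PBS arrays. The difference was 3.63 ± 0.80 (SE, adjusted p = 0.0251) for AzaC, with a 95% interval from 1.88 to 5.39, and 3.43 ± 0.80 (adjusted p = 0.0347) for VPA, from 1.67 to 5.18. Without pregnant PBS replicate 1 the AzaC difference was 3.87 (adjusted p = 0.121) and the VPA difference 3.67 (0.137), and without replicate 2 they were 3.39 (0.141) and 3.19 (0.188), so the call rested on having both control arrays. It was also lost for AzaC without pregnant AzaC replicate 1 (0.076) or 3 (0.0825), and for VPA without pregnant VPA replicate 1 (0.0865), 2 (0.085) or 3 (0.0549) or either virgin VPA array (0.0545).

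Among arrays labelled virgin, Tgfb3 was uneven. The PBS arrays read 10.53 and 8.53, the AzaC arrays 9.32, 12.05 and 11.99, and the VPA arrays 10.37 and 10.04. Only AzaC replicates 2 and 3 were above both PBS arrays, and replicate 1 lay between them. The differences were 1.59 ± 0.80 for AzaC (adjusted p = 0.714) and 0.68 ± 0.88 for VPA (adjusted p = 0.904), and without AzaC replicate 1 the former was 2.49 (adjusted p = 0.169). Ordered by group mean, Tgfb3 ran from pregnant AzaC (12.41 ± 0.53, SD, n = 3) and pregnant VPA (12.21 ± 0.68, n = 3) through virgin AzaC (11.12 ± 1.56, n = 3), virgin VPA (10.21 ± 0.23, n = 2) and virgin PBS (9.53 ± 1.41, n = 2) to pregnant PBS (8.78 ± 0.34, n = 2), and each group overlapped with the next.

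Tgfb1 read 7.70 and 7.94 with PBS under the pregnant label, 8.63, 8.51 and 9.37 with AzaC, and 8.75, 8.78 and 8.31 with VPA. Its drug arrays did not overlap with PBS, but the differences of 1.02 ± 0.32 with AzaC (adjusted p = 0.075) and 0.79 ± 0.32 with VPA (adjusted p = 0.154) missed the threshold. On the virgin arrays Tgfb1 read 8.30 and 7.94 with PBS, 7.94, 8.56 and 8.89 with AzaC, and 8.40 and 8.01 with VPA, and these groups overlapped. Without virgin AzaC replicate 1, which bears on the pregnant comparison only through the shared estimate of the spread, the AzaC difference of Tgfb1 passed (adjusted p = 0.0453).

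Tgfb2 gave no such separation. Its brightest probe set read 9.72 and 8.90 with PBS, 9.74, 9.40 and 10.71 with AzaC and 9.41, 9.34 and 10.01 with VPA on arrays labelled pregnant, which overlapped. The differences were 0.64 ± 0.60 (adjusted p = 0.545) and 0.28 ± 0.60 (adjusted p = 0.822), with intervals from -0.67 to 1.95 and from -1.03 to 1.59 that include a doubling. Probe set 1450923_at of Tgfb2 was higher on all drug arrays of that label, by 0.83 ± 0.44 with AzaC and 0.42 ± 0.44 with VPA, without passing (adjusted p over probe sets 0.275 and 0.625), and 1450922_a_at overlapped. The largest spread within a group was that of virgin AzaC, where replicate 1 read 8.73 and the others 10.65 and 10.90.

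Ltbp1 read 6.03 and 5.62 on the PBS arrays labelled pregnant, 8.53, 7.80 and 9.21 with AzaC, and 8.70, 8.55 and 8.53 with VPA. The 3 VPA arrays lay close together, and again every drug array was above both PBS arrays. The difference was 2.69 ± 0.51 with AzaC (adjusted p = 0.0159, interval from 1.57 to 3.80) and 2.77 ± 0.51 with VPA (adjusted p = 0.018, interval from 1.65 to 3.88). Without pregnant PBS replicate 1 these were 2.89 (adjusted p = 0.0922) and 2.97 (0.0872), and without replicate 2 they were 2.48 (0.105) and 2.56 (0.129). The AzaC call was lost too without pregnant AzaC replicate 1 (0.0531) or 3 (0.0609), and the VPA call held when any other array was left out.

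Ltbp1 on the arrays labelled virgin read 6.76 and 5.89 with PBS, 5.92, 7.61 and 7.52 with AzaC and 5.95 and 5.67 with VPA. AzaC replicates 2 and 3 were again above both PBS arrays and replicate 1 was not, while the mean of the VPA arrays was below that of the PBS arrays. The differences were 0.69 ± 0.51 for AzaC (adjusted p = 0.783, and 1.24 with adjusted p = 0.255 without replicate 1) and -0.52 ± 0.56 for VPA (adjusted p = 0.878). Its group means ran from pregnant VPA (8.59 ± 0.09, SD, n = 3) and pregnant AzaC (8.51 ± 0.70, n = 3), which overlapped, to virgin AzaC (7.02 ± 0.95, n = 3). No array of pregnant AzaC overlapped with virgin AzaC, a difference of 1.5 ± 0.46 (adjusted p = 0.129), which was 0.95 (adjusted p = 0.274) without virgin AzaC replicate 1. Virgin PBS (6.33 ± 0.61, n = 2), pregnant PBS (5.83 ± 0.29, n = 2) and virgin VPA (5.81 ± 0.20, n = 2) followed, each overlapping with the next.

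Of the receptors, Tgfbr2, which binds the ligand, read 10.86 and 10.74 with PBS under the pregnant label, 11.65, 11.34 and 12.29 with AzaC and 11.98, 11.70 and 11.46 with VPA. All 6 drug arrays were above the PBS arrays, by 0.96 ± 0.29 with AzaC (adjusted p = 0.0654) and 0.91 ± 0.29 with VPA (adjusted p = 0.0856), and neither passed. Without pregnant AzaC replicate 2 or virgin AzaC replicate 1 the AzaC difference passed (adjusted p = 0.0316 and 0.049), the latter array entering only through the shared spread. The other probe sets of Tgfbr2 did not separate: 1425444_a_at differed by 0.06 ± 0.54 with AzaC and 0.45 ± 0.54 with VPA, and the dim 1422019_at, listed at 0 on 1 array, by -0.44 ± 1.18 and 0.50 ± 1.18. With the virgin label the brightest probe set read 11.26 and 10.86 with PBS, 11.26, 11.93 and 11.71 with AzaC, and 11.02 and 10.80 with VPA, with a difference of 0.57 ± 0.29 for AzaC (adjusted p = 0.714, and 0.76 with adjusted p = 0.309 without replicate 1) and -0.15 ± 0.32 for VPA (adjusted p = 0.949). There the AzaC arrays of 1422019_at were below both PBS arrays, by -1.83 ± 1.18 (adjusted p over probe sets 0.798), and its VPA difference was -1.51 ± 1.29. Probe set 1425444_a_at differed by -0.06 ± 0.54 with AzaC and -0.33 ± 0.595 with VPA under that label.

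Tgfbr1, the kinase that passes the signal on, read 9.27 and 9.39 with PBS, 10.01, 9.64 and 9.83 with AzaC and 9.89, 9.83 and 10.19 with VPA on arrays labelled pregnant. Neither drug group overlapped with PBS, but the steps were small, at 0.50 ± 0.26 (adjusted p = 0.247) and 0.64 ± 0.26 (adjusted p = 0.151, and 0.0395 without virgin AzaC replicate 1). On arrays labelled virgin it read 9.28 and 9.04 with PBS, 8.96, 9.79 and 9.90 with AzaC and 9.18 and 9.13 with VPA. Its second probe set, 1420893_a_at, differed by 0.23 ± 0.18 with AzaC under the pregnant label and by -0.28 ± 0.18 under the virgin label, where its AzaC arrays were below both PBS arrays (adjusted p over probe sets 0.488 and 0.798). With VPA it differed by 0.23 ± 0.18 under the pregnant label (adjusted p over probe sets 0.517) and by -0.42 ± 0.20 under the virgin label (0.774), there again below both PBS arrays. The third probe set, 1420894_at, differed by 1.17 ± 1.03 with AzaC and 1.27 ± 1.03 with VPA under the pregnant label, where its groups overlapped (adjusted p over probe sets 0.543 and 0.519).

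**Figure D2:**
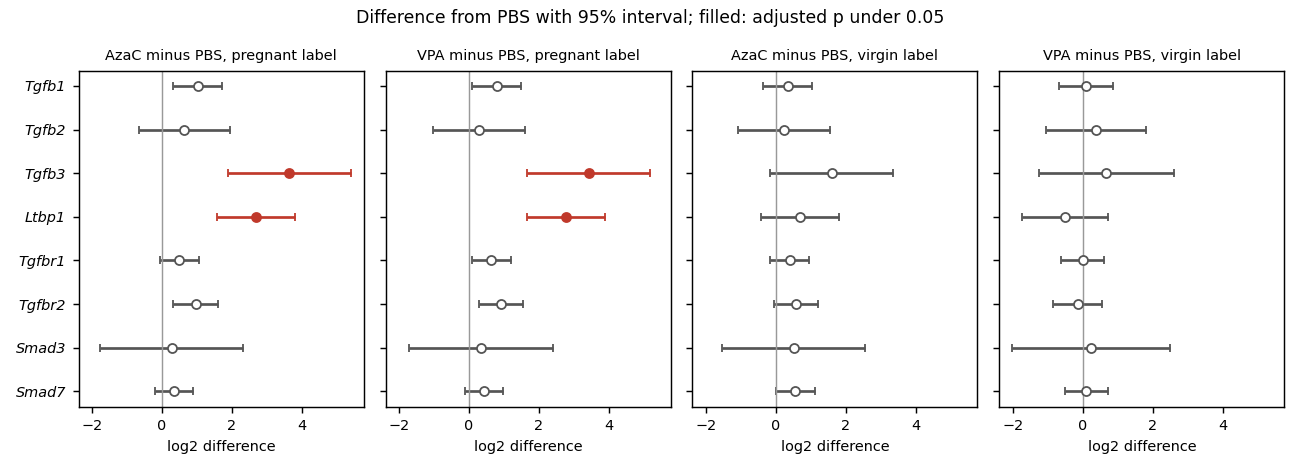
Difference from PBS on the log2 scale (horizontal axis) of the 8 genes for each drug and stage label, with 95% intervals from limma; filled points have an adjusted p under 0.05 over all 12393 genes. Tgfb3 and Ltbp1 are the filled points, both under the pregnant label only, and Smad3 has the widest intervals.

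The transducer Smad3 varied more between replicates than between groups. On arrays labelled pregnant it read 7.32 and 5.63 with PBS, 5.40, 7.81 and 7.03 with AzaC and 8.32, 6.76 and 5.37 with VPA. On arrays labelled virgin it read 8.08 and 5.98 with PBS, 8.0, 7.60 and 7.01 with AzaC and 7.57 and 6.96 with VPA. Group means spanned 1.06 and the pooled SD within groups was 1.14. The differences of 0.27 ± 0.94 with AzaC (adjusted p = 0.892) and 0.34 ± 0.94 with VPA (adjusted p = 0.866) under the pregnant label have intervals from -1.78 to 2.32 and from -1.71 to 2.39, both of which include a 4-fold rise.

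The low Smad3 arrays are those with the widest gap between the 3′ and 5′ control probe sets of Gapdh, a measure of RNA length and labelling. In 4 arrays the 3′ value exceeded the 5′ value by 0.47 to 1.23 (virgin PBS replicate 2, pregnant AzaC replicate 1, pregnant VPA replicate 3 and pregnant PBS replicate 2), and in the other 11 the difference was between -0.17 and 0.20. Smad3 read 5.37 to 5.98 on those 4 arrays and 6.76 to 8.32 on the other 11. Its second probe set, 1450472_s_at, read 4.11 to 5.03 and 5.64 to 7.51, and probe set 1420894_at of Tgfbr1 read 2.86 to 4.29 and 4.55 to 6.84. These are 3 of the 15 probe sets, and over all 20380 probe sets 2.95% were lower on all 4 of these arrays. Tgfb3, from 8.53 to 12.62 on the 4 arrays and from 9.02 to 12.82 on the others, and Ltbp1, from 5.62 to 8.53 and from 5.67 to 9.21, were not apart. With the Gapdh difference as a covariate the Smad3 differences under the pregnant label were 0.34 (adjusted p = 0.588) and 0.29 (adjusted p = 0.654). Under the virgin label they turned from 0.51 to -0.59 with AzaC and from 0.24 to -0.87 with VPA, and no value of Smad3 passed the threshold.

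**Figure D3:**
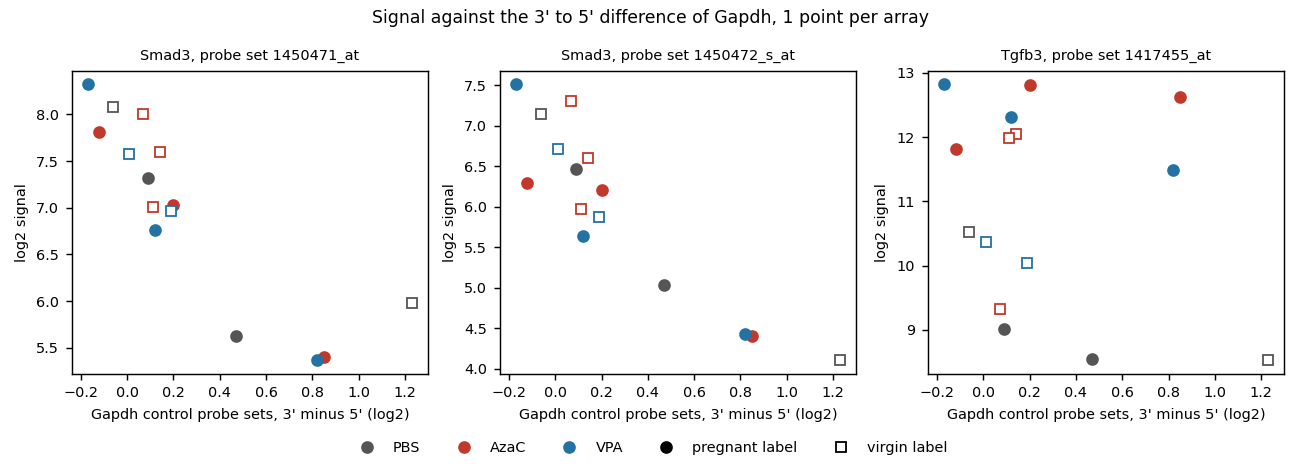
Log2 signal (vertical axis) of both Smad3 probe sets and of Tgfb3 against the 3′ minus 5′ difference of the Gapdh control probe sets (horizontal axis, log2), with 1 point per array coloured by injection and shaped by stage label. The 4 arrays with a difference of 0.47 or more hold the 4 lowest values of each Smad3 probe set, while Tgfb3 on them ranges from 8.53 to 12.62.

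Smad7, the inhibitor of the receptor, read 8.39 and 8.41 with PBS under the pregnant label, 9.01, 8.33 and 8.89 with AzaC and 8.92, 9.01 and 8.54 with VPA. The AzaC arrays overlapped with PBS and the VPA arrays did not, with differences of 0.34 ± 0.25 (adjusted p = 0.425) and 0.42 ± 0.25 (adjusted p = 0.327). Smad7 on the virgin arrays read 8.23 and 7.96 with PBS, 8.47, 8.52 and 8.97 with AzaC and 7.99 and 8.41 with VPA. Its AzaC arrays were all above PBS there, by 0.56 ± 0.25 (adjusted p = 0.714, and 0.65 with adjusted p = 0.34 without replicate 1). It was the 1 gene of the 8 for which all virgin AzaC arrays were, where 11.5% of all genes were.

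Counted together, 5 of the 8 genes were higher on every AzaC array than on both PBS arrays under the pregnant label, where 23.5% of all genes were, and 6 of 8 were with VPA, where 25.7% of all genes were. The median difference of the 8 genes was 0.80 with AzaC and 0.72 with VPA, and over all genes it was 0.04 and 0.06. With quantile normalization the share of called genes that were higher moved from 60.9% to 48.6% for VPA. Under the virgin label none of the 8 passed with either drug, and the median difference was 0.53 with AzaC and 0.10 with VPA, against 0.06 and 0.05 over all genes. In limma's test 0% of all genes passed for AzaC (849 genes at an unadjusted p under 0.05) and 0.00807%, which is 1 gene, for VPA (851).

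Whether a drug difference depended on the stage label was tested by subtracting the log2 difference under the virgin label from that under the pregnant label. For VPA this was 3.28 ± 0.75 for Ltbp1 (adjusted p = 0.0744, interval from 1.63 to 4.94) and 2.75 ± 1.19 for Tgfb3 (adjusted p = 0.244), and 0.315% of all genes passed. For AzaC it was 2.00 ± 0.72 for Ltbp1 (adjusted p = 0.279) and 2.04 ± 1.13 for Tgfb3 (adjusted p = 0.471), and 0% of genes passed (1587 at an unadjusted p under 0.05). None of the 8 passed, so the calls under the pregnant label and their absence under the virgin label do not show a difference between the labels. Without virgin AzaC replicate 1, which has a part in the VPA test only through the shared spread, Ltbp1 passed for VPA (adjusted p = 0.0223), and for AzaC its value was 1.45 (adjusted p = 0.323) and that of Tgfb3 1.14 (adjusted p = 0.617).

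Between the drugs themselves none of the 8 genes passed the test. AzaC minus VPA under the pregnant label was 0.21 ± 0.72 for Tgfb3, with an interval from -1.36 to 1.78, and -0.08 ± 0.46 for Ltbp1, with an interval from -1.08 to 0.92, so differences of up to about a doubling for Ltbp1 remain within the error. In limma's test 0% of all genes passed this comparison (468 at an unadjusted p under 0.05). Under the virgin label, where 0% passed too (813 at an unadjusted p under 0.05), Ltbp1 differed by 1.21 ± 0.51 (adjusted p = 0.744) and Tgfbr2 by 0.72 ± 0.29 (adjusted p = 0.744). Tgfbr2 and Smad7 (0.45 ± 0.25, adjusted p = 0.767) were higher with AzaC there without overlap, as were 13.1% of all genes. Without virgin AzaC replicate 1 the Ltbp1 and Tgfbr2 differences were 1.76 (adjusted p = 0.201) and 0.91 (adjusted p = 0.324).

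Between the stage labels, none of the 8 genes passed with PBS, where 0.00807% of genes did (521 at an unadjusted p under 0.05). The PBS differences were -0.75 ± 0.88 for Tgfb3 and -0.50 ± 0.56 for Ltbp1, and the median of the 8 was -0.40 against 0.03 over all genes. With AzaC none of the 8 passed either, where 1.23% of genes did. With VPA Ltbp1 was 6.88-fold higher under the pregnant label (2.78 ± 0.51, adjusted p = 0.0192), where 6.66% of genes passed and 3.7% passed as higher. Without virgin VPA replicate 1 or 2, which leaves 1 array assumed to vary like the other groups, the value was 2.92 (adjusted p = 0.151) or 2.64 (adjusted p = 0.0982), and without pregnant VPA replicate 1 it was 2.73 (adjusted p = 0.0505). Without virgin AzaC replicate 1, which enters here only through the shared spread, Tgfb3 and Tgfbr1 passed too (adjusted p = 0.0477 and 0.0183). In that comparison 5 of the 8 genes were higher on every array labelled pregnant (Tgfb3, Ltbp1, Tgfbr1, Tgfbr2 and Smad7), where 26.2% of all genes were, and quantile normalization moved the share of called genes that were higher from 55.5% to 44.9%.

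**Figure D4:**
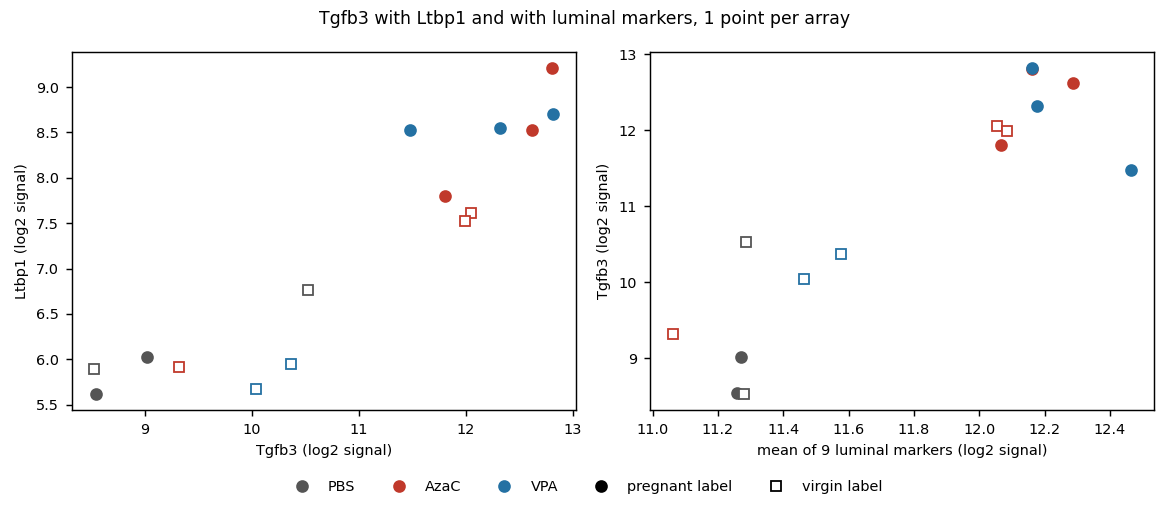
Left, log2 signal of Ltbp1 (vertical axis) against that of Tgfb3 (horizontal axis), and right, log2 signal of Tgfb3 against the mean log2 signal of 9 luminal epithelial markers, with 1 point per array coloured by injection and shaped by stage label. The 6 drug arrays labelled pregnant and virgin AzaC replicates 2 and 3 lie together at high Tgfb3, high Ltbp1 and high luminal markers, and the other 7 arrays lie below them in both panels.

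Markers of several cell types were higher with the drugs under the pregnant label, where Tgfb3 and Ltbp1 rose. The mean of all 9 luminal markers was 11.26 to 11.27 on the PBS arrays labelled pregnant, 12.07 to 12.29 with AzaC and 12.16 to 12.47 with VPA. Under the virgin label it was 11.28 to 11.29 with PBS, 11.06 on AzaC replicate 1 against 12.05 and 12.09 on the other two, and 11.46 to 11.58 with VPA. The luminal list had 0 of 9 members past the threshold with AzaC and 2 of 9 with VPA, Cdh1 (E-cadherin, 1.60, adjusted p = 0.0463) and Cldn4 (a tight junction claudin, 2.66, adjusted p = 0.0472).

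The endothelial list of 10 genes ran from 7.19 to 7.74 with PBS, from 8.0 to 8.71 with AzaC and from 8.04 to 8.71 with VPA under the pregnant label, with the tight junction gene Cldn5 past the threshold with both drugs (1.80 and 1.98). The fibroblast list of 10 ran from 9.12 to 9.22, from 9.43 to 10.10 and from 9.69 to 10.48, with Dcn past the threshold with VPA. The macrophage list of 10 ran from 7.72 to 8.0, from 8.29 to 8.53 and from 8.25 to 8.86, and that of 7 pericyte and smooth muscle genes from 7.90 to 7.98, from 8.20 to 8.91 and from 8.29 to 8.77, with none past the threshold. Basal and myoepithelial markers overlapped between the groups, from 9.47 to 9.65, from 9.35 to 9.55 and from 9.47 to 9.87. Adipocyte markers (7 genes) overlapped for AzaC, at 8.07 to 8.23 with PBS, 8.13 to 9.11 with AzaC and 8.73 to 8.95 with VPA. The mean of 5 platelet genes ran from 5.18 to 5.30, from 4.81 to 5.26 and from 5.26 to 5.62, and that of 9 T and B cell genes from 5.01 to 5.29, from 4.53 to 5.05 and from 5.24 to 5.57, so both overlapped with PBS. Under the virgin label the list medians of the AzaC difference were 0.415 (luminal), 0.44 (endothelial), 0.055 (pericyte and smooth muscle), -0.04 (macrophage) and -0.28 (fibroblast). In the same order they were 0.23, 0.19, -0.035, -0.18 and -0.62 with VPA. The adipocyte list was lower there, with medians of -0.57 with AzaC and -0.865 with VPA. Basal and myoepithelial medians were -0.02 and -0.135, those of T and B cell genes 0.27 and 0.36, and those of platelet genes 0.01 and 0.205. The part of these marker shifts in the rise of Tgfb3 and Ltbp1 was not tested.

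The other genes of the pathway were taken from 7 lists with 98 measured genes outside the 8, of which a few stand in more than 1 list. Under the pregnant label 12 of the 98 rose with AzaC and 12 with VPA, or 12.2% in each case, and none fell, against the 3.76% and 3.64% of all genes given above. Their median difference was 0.49 with AzaC and 0.47 with VPA, with 75 and 78 of the 98 above 0, against 0.04 and 0.06 over all genes. Calls over all genes are not given for the fits with arrays left out. How far those fits lost pathway calls beyond a loss over all genes is therefore not shown for the counts of 12. These counts rested on single arrays: without either pregnant PBS array 0 genes were called with each drug, without pregnant AzaC replicate 1 or 3 the AzaC count was 0, and without pregnant VPA replicate 1, 2 or 3 the VPA count was 0, 1 and 2. The VPA count was 7 without pregnant AzaC replicate 1 and 6 without virgin AzaC replicate 2 or either virgin VPA array. Without the 3 arrays of highest Gapdh difference the counts were 3 and 2.

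**Figure D5:**
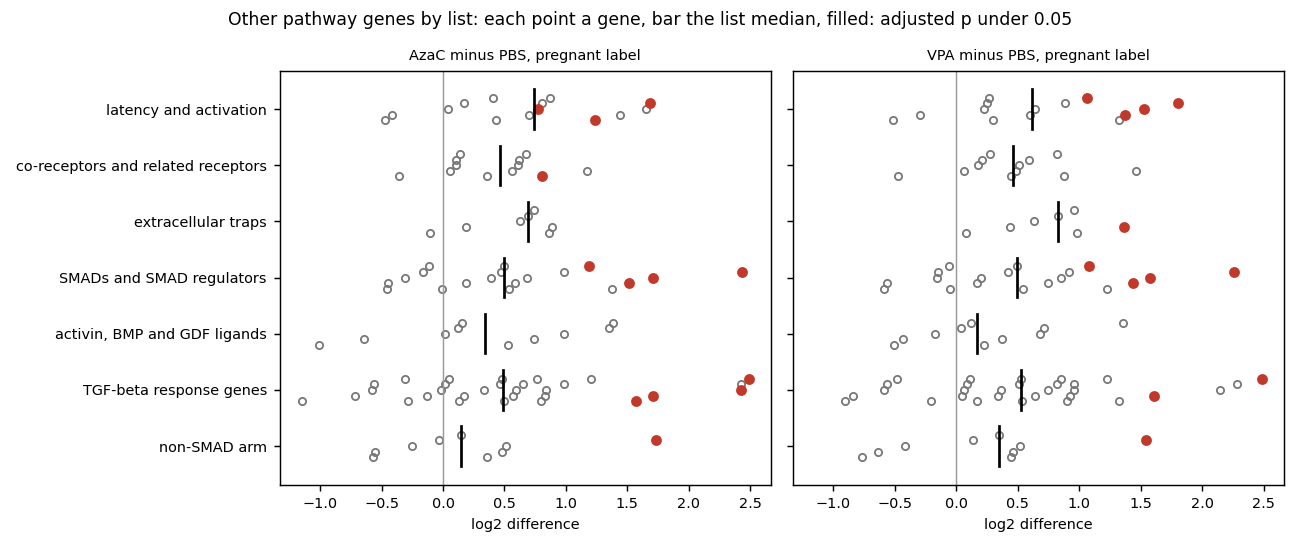
Difference from PBS under the pregnant label (horizontal axis, log2) of each measured gene of the 7 pathway lists for AzaC (left) and VPA (right); each point is a gene, the black bar is the list median, and filled points have an adjusted p under 0.05. All filled points lie to the right of 0, up to 2.49 for Junb.

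Of 14 genes of latency and activation, 3 rose with AzaC (list median 0.74) and 4 with VPA (list median 0.62). Tgm2, a transglutaminase that crosslinks latent complexes into the matrix, read 8.59 to 8.74 with PBS, 9.85 to 10.80 with AzaC and 10.29 to 10.64 with VPA, and rose by 1.69 ± 0.40 (adjusted p = 0.0309) and 1.81 ± 0.40 (adjusted p = 0.0298). Ltbp3 and Ltbp2, relatives of Ltbp1, rose by 1.53 ± 0.40 (adjusted p = 0.0489) and 1.37 ± 0.35 (adjusted p = 0.0452) with VPA, while Nrros, which holds latent TGF-beta on macrophages and microglia, rose by 1.24 ± 0.26 (adjusted p = 0.0221) with AzaC. Mmp9, a matrix protease, rose by 0.78 ± 0.20 (adjusted p = 0.0393) and 1.07 ± 0.20 (adjusted p = 0.019). It read 4.17 to 4.48 on the PBS arrays labelled pregnant and 5.22 to 5.38 on the PBS arrays labelled virgin. Among 12 related receptors Acvr1b, an activin type I receptor, rose with AzaC (0.81 ± 0.22, adjusted p = 0.0496) and differed by 0.82 ± 0.22 with VPA (adjusted p = 0.0514). Of 7 extracellular traps, Dcn (decorin, which binds TGF-beta) rose with VPA by 1.37 ± 0.36 (adjusted p = 0.0499), and it also stands in the fibroblast list.

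Among 19 other SMADs and SMAD regulators, 4 rose with each drug (medians 0.50 and 0.49). Smad4, the common partner of the receptor-activated SMADs, read 9.85 to 9.90 with PBS, 10.59 to 11.31 with AzaC and 10.84 to 11.13 with VPA, and rose by 1.19 ± 0.27 (adjusted p = 0.0282) and 1.08 ± 0.27 (adjusted p = 0.043). Smad1, which serves BMP receptors, rose by 1.51 ± 0.29 (adjusted p = 0.0165) and 1.44 ± 0.29 (adjusted p = 0.0228). The genes called besides these are known as brakes on the pathway. Nedd4l, a ubiquitin ligase for activated SMADs, rose by 2.43 ± 0.46 (adjusted p = 0.0164) and 2.26 ± 0.46 (adjusted p = 0.0246), Tgif1, a SMAD co-repressor, by 1.71 ± 0.47 with AzaC (adjusted p = 0.0492), and Ski, another co-repressor, by 1.58 ± 0.39 with VPA (adjusted p = 0.0409).

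Of 30 genes known to respond to TGF-beta, 4 rose with AzaC (median 0.49) and 2 with VPA (median 0.53). Junb, an AP-1 transcription factor, read 6.98 and 7.01 with PBS and rose by 2.49 ± 0.51 with each drug (adjusted p = 0.0203 and 0.0246). Bhlhe40, a transcriptional repressor, rose by 1.57 ± 0.32 (adjusted p = 0.0199) and 1.61 ± 0.32 (adjusted p = 0.0224), and Klf10, a TGF-beta inducible repressor, by 2.43 ± 0.63 with AzaC (adjusted p = 0.0406). Tgif1 is the fourth, and each of these genes also answers to other signals. In the non-SMAD arm 1 of 9 genes rose, Pik3r1 (a regulatory subunit of PI3-kinase), by 1.73 ± 0.38 (adjusted p = 0.0254) and 1.54 ± 0.38 (adjusted p = 0.0406). None of the 10 activin, BMP and GDF ligands passed, and Bmp2 differed by 1.39 ± 0.46 (adjusted p = 0.0839) and 1.36 ± 0.46 (adjusted p = 0.0999). Under the virgin label 0 of the 98 passed with either drug, and their medians were 0.09 with AzaC and -0.03 with VPA. Between the stage labels with VPA, 15 were higher and 1 lower under the pregnant label (16.3% in all, against the 6.66% of all genes called there, 3.7% as higher), and the count of 16 ranged from 0 without virgin VPA replicate 1 to 25 without virgin AzaC replicate 1.

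The genes whose profiles over the 15 arrays were most like that of Tgfb3, each centred on its own mean, were Sox4 (a transcription factor, root mean square difference 0.32), Dusp8 (a MAP kinase phosphatase, 0.34), Gadd45a (a stress response gene, 0.43), Slc45a3 (0.43) and Tyro3 (a receptor tyrosine kinase, 0.44). Ltbp1 was 0.60 from Tgfb3, Tgfb1 was 1.14 and Tgfb2 was 1.39. Nearest to Ltbp1 were Synpo (0.23), Col4a5 (a collagen chain, 0.24), Tspan17 (0.27), Arid5b (0.27) and Rb1 (the retinoblastoma protein, 0.28). These 10 genes were chosen for their likeness, so their own drug differences are a description: under the pregnant label they lay between 2.37 and 3.43 with AzaC and between 2.32 and 3.43 with VPA.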

How the data were processed

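The values are the processed signals that the authors deposited, 22690 probe sets on 15 arrays, taken as log2 because their range is that of logged Affymetrix intensities. The log base, summary method and normalization are not given in the sources used here. Probe sets were named by the platform annotation (20380 with 1 symbol, 691 with several, 1555 with none, 64 controls), and each gene was represented by its brightest probe set over all arrays, with no filter.

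The model (limma 3.58.1 in R 4.3.3, lmFit then eBayes) holds a mean for each of the 6 groups over the 15 arrays, with 9 residual and 2.31 prior degrees of freedom. The 11 comparisons are two-sided moderated tests, adjusted by Benjamini-Hochberg over 12393 genes (or, for each probe set, over 20380) at a threshold of 0.05. On data simulated for AzaC under the pregnant label over 12393 genes, 36 of 100 genes changed by 1 and 92 of 100 changed by 2 were recovered, and 9 unchanged genes were called. The noise was independent and normal. The changed genes were drawn from outside the lowest 40% by mean, so these rates do not cover dim genes such as Smad3. The number of arrays limits the precision.

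The 8 genes, the lists and the tests were chosen with earlier results of these data known. All 8 genes are named, with up to 4 called members of each pathway list (or the 2 smallest p) and the 5 nearest profiles to Tgfb3 and Ltbp1. Not every gene so chosen is described. The counts of pathway genes under other settings were added after seeing the data. The labels do not say whether equal replicate numbers pair the arrays. Deviations of same-numbered arrays correlated at -0.17 to 0.33 over 33 pairs. Differently numbered arrays were not set beside them, so these values do not decide it. Figures were drawn with matplotlib 3.10.9.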

Additional observations from a re-analysis of the deposited data

How the results depend on the processing

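The rise of Tgfb3 and Ltbp1 with each drug under the pregnant label kept its direction in all 10 other settings and with each of the 15 arrays left out in turn, but its call did not. The AzaC difference of Tgfbr2 fell from 0.96 to 0.20, and was not called, when its 3 probe sets were averaged. For AzaC the count of the 8 genes past the threshold, 2 as reported, was 4 without dim genes (the lowest 40% by mean) and 4 with trend and robust settings, where Tgfb1 and Tgfbr2 joined. It was 0 when only the 5 arrays compared were fitted and 0 without the 3 arrays of highest Gapdh difference, settings with fewer arrays. With the replicate block it was 1 (Ltbp1, with Tgfb3 at 3.54 and adjusted p = 0.0611), and leaving out 1 array gave 0 to 4. For VPA the count of 2 became 3 without dim genes (Tgfbr2 joined, adjusted p = 0.0428), 1 with the replicate block (Ltbp1, with Tgfb3 at an adjusted p of 0.085) and 0 without the 3 arrays of highest Gapdh difference, and leaving out 1 array gave 0 to 3. The replicate block moved the genes called from 938 to 466 for AzaC and from 741 to 241 for VPA. Since the labels do not say that the numbers pair the arrays, this setting is given in this section alone.

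With VPA the count between stage labels, 1 as reported, was 2 without dim genes, 0 without the 3 arrays of highest Gapdh difference and 0 to 3 with 1 array left out. The dependence of the VPA difference on the stage label, 0 of 8 as reported, was 1 (Ltbp1) without dim genes, with trend and robust settings and with only the arrays compared, and 0 to 1 with 1 array left out. The counts of the other 7 comparisons stayed at 0 in all settings. No called difference of the 8 genes changed sign, and Smad3 is among the dim genes left out. Of the 98 other pathway genes, 12 with each drug as reported, the replicate block left 4 with AzaC and 1 with VPA. Fitting only the arrays compared gave 0 with AzaC and 12 with VPA. With signals under 5 raised to 5 the counts were 10 and 7, and with the Gapdh covariate they were 16 and 16. Of these settings, only the replicate block has its calls over all genes given above. Where no cause is named here, the cause was not tested.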
